A study of Mus musculus with 12 samples.

Results

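The comparison set mammary tumours of the YD strain against those of the parental NDL25 strain, which GEO's protocols call NDL2-5. It used 4 of the 12 tumour pools of the series, the 2 titled YD and the 2 titled NDL25, chosen by title alone. Both strains are transgenic female mice in which the mouse mammary tumour virus (MMTV) promoter drives neu, the rodent ErbB2 gene, in the activated form named ndl. The YD strain carries the altered receptor neundl-YD and the NDL25 strain the parental receptor. Each pool held equal amounts of RNA from 5 separate tumours, 10 tumours in a strain, taken 6 weeks after tumours appeared in the mouse. The animals' ages are not given in the sources used here. A pool is 1 sample, so differences between its 5 tumours are not seen. The MMTV promoter is active in mammary epithelium and in some other glands, salivary glands among them.

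ErbB2 is a receptor tyrosine kinase that signals as a dimer. The tyrosines of its tail, once phosphorylated, bind adaptor proteins that link the kinase to the Ras, ERK and PI3K pathways. In the YD receptor the main autophosphorylation sites of the tail were removed and a single one was put back, the site that binds the adaptor Shc. The parental receptor keeps the full set. The comparison therefore asks how tumours of the strain whose receptor has this site alone differ in gene expression from those of the parental strain.

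The reference on every array was Universal Mouse Reference RNA, sold as a mixture. Each pool was set against it on 2 Agilent two-colour arrays with exchanged dyes. Values are log2 tumour over reference, averaged over the 2 arrays of a pool. The labels do not say which dye held the tumour, so the direction was read from marker genes: on 24 of 24 arrays the milk genes Csn2 and Lalba lay on one side and Afp, a fetal liver gene, on the other. On the 8 arrays of YD and NDL25 the median tumour signal ran from 409.6 to 763.5 intensity units and the median local background from 43 to 48. Signal stood well above background on 97.5% to 98.8% of spots. The number of pools limits the precision. Luminal epithelial markers were at similar levels in both strains: the median over 20 was 1.57 and 1.46 in the YD pools, against 1.62 and 1.43 in the NDL25 pools. These markers do not tell mammary tissue from that of other glands. The pools of another strain, YB, had salivary gland medians of 2.87 and 3.72 and luminal medians of 1.85 and 1.59. By the image-extraction times in the scanner files, all YD arrays were read on one day and all NDL25 arrays on another, and this day and the strain cannot be told apart from these 4 pools. Values given below with the extraction day as a term do not separate them either. The size of that term rests on 2 pools of another strain, YC, the second of which was read on both days. For a gene it adds 2 times the gap, YC pool 1 minus YC pool 2, and so carries variation between those tumours.

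Tmed3 and Fanca fell in YD tumours relative to NDL25 tumours, and no other gene passed the test. Tmed3 encodes a cargo receptor of the TMED family, which sorts proteins in the vesicles between endoplasmic reticulum and Golgi. Fanca encodes a core subunit of the Fanconi anaemia complex, which repairs DNA crosslinks. Of 28347 genes tested by limma with Benjamini-Hochberg adjustment, 2 passed an adjusted p of 0.05 as lower in YD (0.00706% of the genes) and 0 as higher (0%). At an unadjusted p under 0.05 there were 1659 lower (5.85%) and 1280 higher (4.52%).

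Tmed3, on chromosome 9, had a log2 ratio of 1.2 and 1.19 in the YD pools, against 2.06 and 1.92 in the NDL25 pools. Its level was above the reference in all 4 pools, and those of YD were the lower in each pairing. It fell by 0.79 ± 0.06 on the log2 scale (SE, n = 2 pools a strain), a 1.73-fold lower level in YD (limma adjusted p = 0.0366). A second, dimmer probe of the gene showed a difference of 0.06. Fanca, on chromosome 8, had -1.54 and -1.44 in the YD pools, against -0.44 and -0.47 in the NDL25 pools. All 4 pools were below the reference, the YD pools further so, with no overlap. The fall of Fanca was 2.05-fold, by 1.03 ± 0.09 on the log2 scale (limma adjusted p = 0.0417), and its second probe showed -0.14. With the mean of each gene's probes neither passed, at adjusted p = 0.106 for Tmed3 and 0.0695 for Fanca. Neither passed when any 1 of the YD or NDL25 pools was left out, with adjusted p from 0.0586 to 0.228. With the extraction day as a term the difference was -0.66 ± 0.19 for Tmed3 and -1.28 ± 0.26 for Fanca, and neither passed.

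The wider spread of differences was modest. The median difference over all genes was -0.004. In 105 genes (0.37%) both YD pools lay above both NDL25 pools with means at least 2-fold apart, and in 73 (0.258%) both lay below. Without the size limit the pools did not overlap in 22.4% of all genes upward and 23.8% downward. Pools of 1 strain also differed: 196 genes differed 2-fold or more between the YD pools and 182 between the NDL25 pools. Among the 178 genes that were 2-fold apart without overlap, NDL25 had the most extreme mean of the 6 strains in that direction in 126, and YD in 62, with both true in 28.

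**Figure D1:**
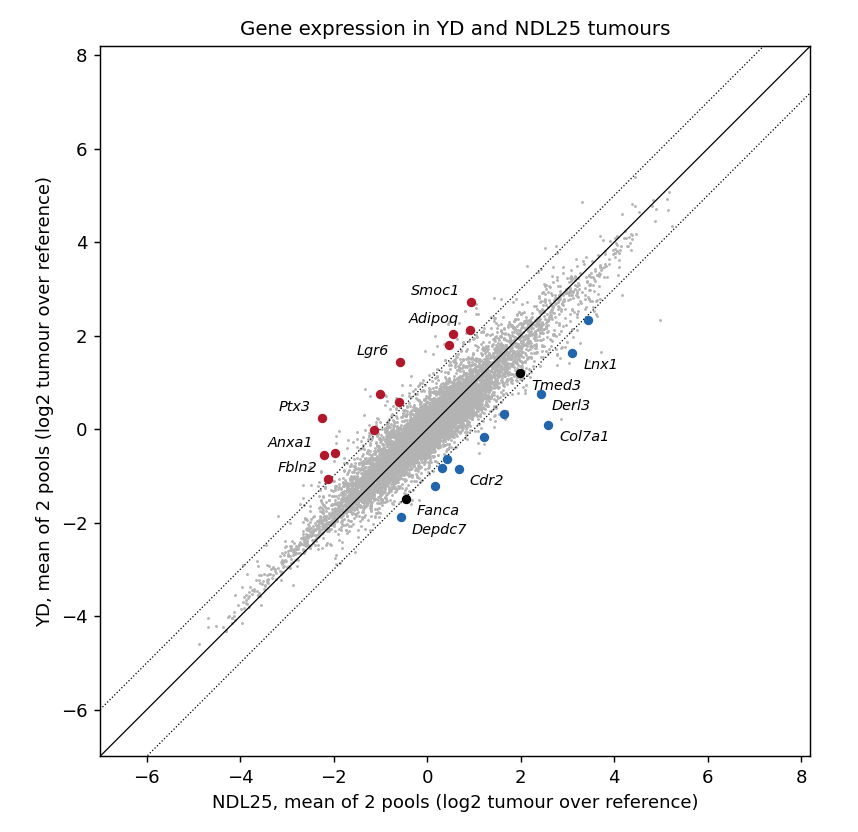
Mean log2 tumour over reference of the 2 YD pools (vertical) against that of the 2 NDL25 pools (horizontal), 1 point a gene for 28347 genes. The solid line marks equal levels and the dotted lines a 2-fold difference. Black points are Tmed3 and Fanca, red the 12 named genes higher in YD and blue the other named genes lower in YD. Most genes lie between the dotted lines.

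The 12 genes higher in YD with the smallest p-values, at least 2-fold apart and without overlap between pools, included Ptx3, Anxa1, Smoc1, Lgr6 and Wnt5b. None of the 12 passed the adjusted test, with adjusted p from 0.0528 to 0.105. Ptx3 encodes a long pentraxin, a secreted protein of innate immunity that also binds extracellular matrix. It had a log2 ratio of 0.17 and 0.30 in the YD pools, against -1.96 and -2.55 in the NDL25 pools. The YD pools were near the reference level and the NDL25 pools far below it. The difference was 2.49 ± 0.25 (5.63-fold higher in YD, limma adjusted p = 0.0528), and a second Ptx3 probe gave 2.66. Smoc1 encodes a matricellular calcium-binding protein related to SPARC. It had 2.48 and 2.97 in the YD pools, against 1.02 and 0.87 in the NDL25 pools. Every pool was above the reference, those of YD the most, and the difference was 1.78 ± 0.20 (3.43-fold, limma adjusted p = 0.0654).

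Other extracellular proteins were Col16a1, Fbln2, Ntn1 and Wnt5b. Col16a1, a fibril-associated collagen, had 0.70 and 0.79 in the YD pools, against -1.01 and -1.03 in the NDL25 pools, but its second probe differed by only 0.02. Fbln2, the matrix glycoprotein fibulin, had -1.04 and -1.10 in the YD pools, against -2.13 and -2.10 in the NDL25 pools. Ntn1, the secreted guidance cue netrin, had 1.78 and 2.28 in the YD pools, against 0.36 and 0.73 in the NDL25 pools. For Ntn1 too the second probe showed less, 0.20. Wnt5b, a Wnt ligand, had 1.49 and 2.10 in the YD pools, against 0.53 and 0.39 in the NDL25 pools, and its second probe gave 1.03. Wnt5b was higher in YD on both probes. With the extraction day as a term the differences were 2.23 ± 0.75 for Col16a1 and 0.44 ± 0.46 for Fbln2. They were 0.99 ± 0.65 for Ntn1 and 0.77 ± 0.61 for Wnt5b.

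Lgr6 encodes a receptor for R-spondins, which enhance Wnt signalling. It had 1.09 and 1.77 in the YD pools, against -0.80 and -0.36 in the NDL25 pools, a difference of 2.01 ± 0.28. The YD pools lay above the reference and the NDL25 pools below it. Anxa1, a phospholipid-binding annexin that limits inflammation, had -0.53 and -0.56 in the YD pools, against -2.26 and -2.16 in the NDL25 pools, a difference of 1.66 ± 0.19. Cnn2, the actin-binding calponin, had -0.65 and -0.38 in the YD pools, against -1.97 and -1.97 in the NDL25 pools. Both Anxa1 and Cnn2 were below the reference in all 4 of these pools and least so in YD. The remaining 3 were Dnajc22, a J-domain protein, Ggta1, a galactosyltransferase of cell-surface glycans, and Adipoq, the fat-cell hormone adiponectin, with differences of 1.19, 1.11 and 1.22.

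**Figure D2:**
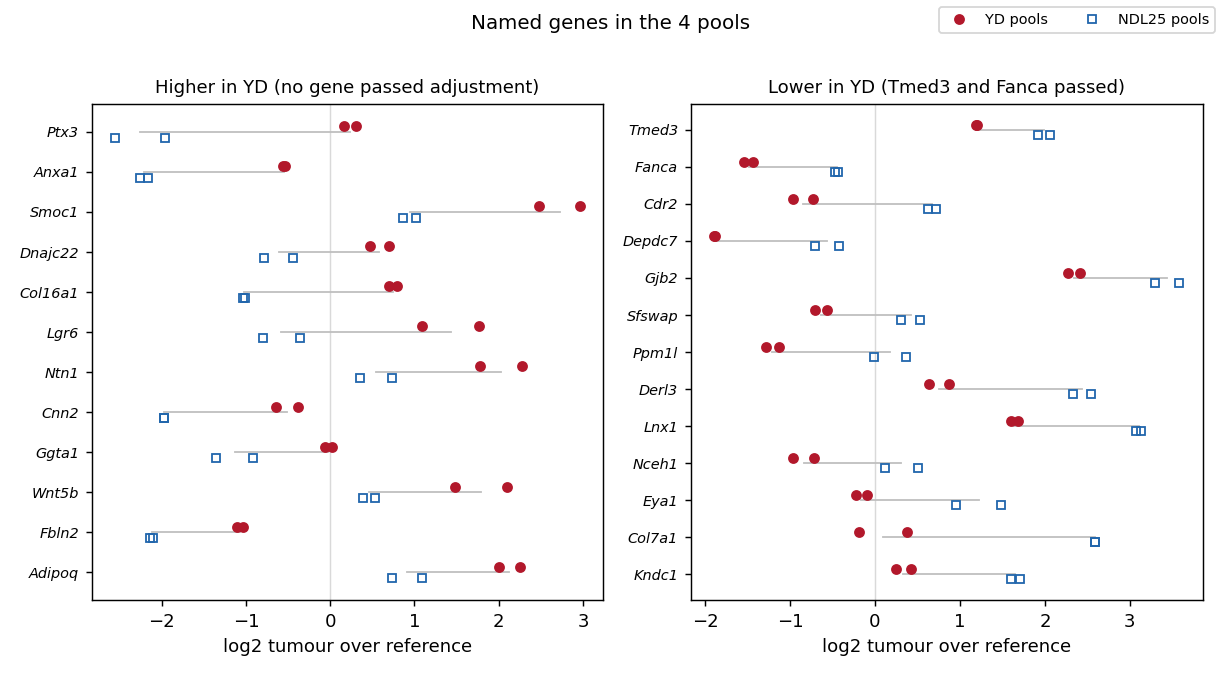
Log2 tumour over reference of each named gene (rows) in the 2 YD pools (filled red circles) and the 2 NDL25 pools (open blue squares), with a grey line between the strain means. Genes run from the smallest p at the top. The left panel holds the 12 genes higher in YD and the right panel those lower in YD; in each gene the pools of the strains do not overlap.

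The 12 genes lower in YD by the same rule included Fanca and 11 that did not pass, with adjusted p from 0.0654 to 0.124. Cdr2, a cytoplasmic antigen of paraneoplastic cerebellar degeneration, had -0.97 and -0.72 in the YD pools, against 0.63 and 0.72 in the NDL25 pools. The YD pools were below the reference and the NDL25 pools above it, with a difference of -1.52 ± 0.18 (limma adjusted p = 0.0654). Gjb2, a gap-junction connexin, had 2.27 and 2.41 in the YD pools, against 3.58 and 3.29 in the NDL25 pools, while its second probe differed by 0.03. Lnx1, a ubiquitin ligase that targets Numb, had 1.60 and 1.68 in the YD pools, against 3.13 and 3.08 in the NDL25 pools. Its 3 other probes ranged from -1.31 to 0.12. Gjb2 and Lnx1 were above the reference in all 4 pools.

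Col7a1, the collagen of the anchoring fibrils beneath epithelia, had the widest gap of these 12 genes. It had 0.38 and -0.19 in the YD pools, against 2.59 and 2.59 in the NDL25 pools, a difference of -2.49 ± 0.44 (limma adjusted p = 0.114). The NDL25 pools were the highest of the 4 and almost equal. With the extraction day as a term the difference turned to 0.37 ± 0.77, where the YC pools that set this term were at 0.67 and -0.76. Eya1, a phosphatase and transcriptional co-activator, had -0.10 and -0.22 in the YD pools, against 0.96 and 1.49 in the NDL25 pools, while its second probe differed by -0.08. Nceh1, a cholesterol ester hydrolase, Ppm1l, a protein phosphatase, Sfswap, a splicing regulator, and Depdc7 and Kndc1 differed by -1.06 to -1.38. The other probes of Sfswap and Kndc1 lay between -0.08 and 0.04, and those of Ppm1l between -0.44 and 0.06.

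Chaperones and degradation factors of the endoplasmic reticulum (ER) had lower values in YD. When unfolded proteins gather in the ER, the transcription factors ATF6 and XBP1 raise such genes, and ATF6 acts through a promoter element known as the ER stress response element (ERSE). Of 20 members of a list of ER stress and amino acid response genes, 0 passed the adjusted test, 6 had an unadjusted p under 0.05 as lower and 0 as higher. Both YD pools lay below both NDL25 pools in 11 members and above in 2. Over all genes 23.8% lay below and 22.4% above without overlap. At an unadjusted p under 0.05 the shares of all genes were 5.85% lower and 4.52% higher. Counts in every list below are to be read against these shares. The list's median difference was -0.35, against -0.004 over all genes. It was -0.21 without YD pool 1, and -0.65 with the extraction day as a term. For YD minus the mean of YB, YC and YE, the other strains with a single restored site, the list's median was -0.03.

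Derl3 and Dnajc3 are shown here because they were the members with the smallest p and both hold the ERSE in the 250 bases before the gene start. The element was searched on both strands as CCAAT, 9 bases of any kind and then CCACG, and capitals mark the match. The stretches are from RefSeq, build GRCm38.p6, at chr10:75893148-75893397 on the plus strand for Derl3 and chr14:118937682-118937931 on the plus strand for Dnajc3. The match begins 156 bases before the start of Derl3, read on the opposite strand, and 105 bases before that of Dnajc3.
Derl3: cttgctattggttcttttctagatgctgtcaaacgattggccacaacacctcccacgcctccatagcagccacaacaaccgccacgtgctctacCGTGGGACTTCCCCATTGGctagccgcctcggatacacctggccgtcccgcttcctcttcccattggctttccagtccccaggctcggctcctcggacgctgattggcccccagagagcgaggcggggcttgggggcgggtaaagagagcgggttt
Dnajc3: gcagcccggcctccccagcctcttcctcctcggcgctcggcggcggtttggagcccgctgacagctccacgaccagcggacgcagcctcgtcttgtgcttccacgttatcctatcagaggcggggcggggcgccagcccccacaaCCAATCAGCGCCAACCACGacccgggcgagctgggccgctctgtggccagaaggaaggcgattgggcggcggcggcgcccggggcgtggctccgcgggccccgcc

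The element was found in 4 of the 19 list members with a RefSeq promoter (21.1%), namely Derl3, Dnajc3, Hsp90b1 and Hspa5, and in 35 of 27025 genes overall (0.13%). A match is a description of these letters only. Derl3, which helps to draw misfolded proteins out of the ER, had 0.64 and 0.87 in the YD pools, against 2.54 and 2.33 in the NDL25 pools, a difference of -1.68 ± 0.27 (3.19-fold lower in YD, limma adjusted p = 0.0961). Dnajc3, a co-chaperone that also inhibits the kinase PERK, had 0.44 and 0.56 in the YD pools, against 1.54 and 1.32 in the NDL25 pools. Both genes were above the reference in all 4 pools and lower in YD. The 3 other Dnajc3 probes differed by -1.06 to -0.46. Hsp90b1, a major ER chaperone, had -0.66 and -0.09 in the YD pools, against 0.22 and 0.08 in the NDL25 pools. Its second probe differed by 0.02, and Hspa5, the chaperone BiP, differed by -0.36 ± 0.31.

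Hyou1, an ER chaperone of the large Hsp family, had -0.40 and 0.01 in the YD pools, against 0.79 and 0.83 in the NDL25 pools, a difference of -1.01 on this probe and -0.12 on the other. Herpud1, an ER degradation factor, had 0.47 and 0.67 in the YD pools, against 1.36 and 1.14 in the NDL25 pools. The amino acid enzymes Asns and Phgdh had lower values in YD as well, with differences of -0.88 and -0.82. The stress transcription factors did not share this direction: Atf4 differed by 0.69, Xbp1 by 0.44, Atf3 by 0.03 and Ddit3 by 0.01, and none passed. The Phgdh difference was 0.08 with the extraction day as a term.

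**Figure D3:**
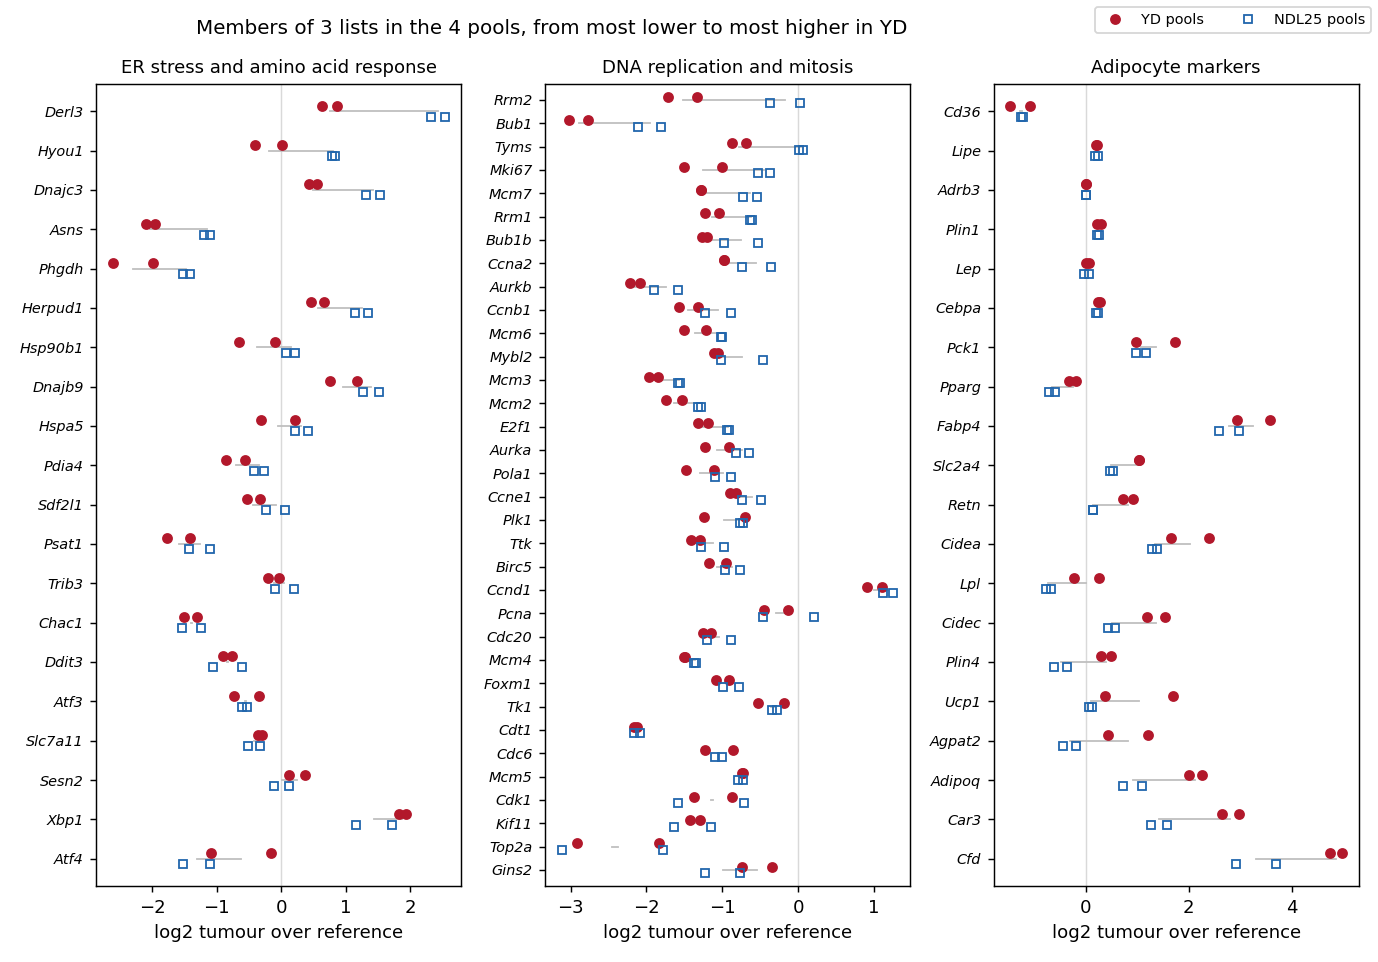
Log2 tumour over reference of the tested members of 3 lists, without 1 replication gene that is not reported here, in the 2 YD pools (filled red circles) and the 2 NDL25 pools (open blue squares), with a grey line between the strain means. In each panel members run from the most negative difference, YD minus NDL25, at the top to the most positive. Derl3 stands at the top of the ER stress panel and Cfd at the bottom of the adipocyte panel.

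Genes of DNA replication and mitosis had lower values in YD in the larger part of the list. These genes are expressed in cycling cells, and many of those for replication are driven by E2F transcription factors. Of 35 members 0 passed the adjusted test, 12 had an unadjusted p under 0.05 as lower and 0 as higher. Both YD pools lay below both NDL25 pools in 22 members and above in 1, where the shares over all genes were 23.8% and 22.4%. The median difference was -0.30, and -0.04 with the extraction day as a term. For YD minus the mean of YB, YC and YE it was also -0.04. In bulk RNA, fewer cells of a type and less RNA per cell cannot be told apart, here and in all lists below.

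Tyms makes thymidylate, a precursor of DNA. It had -0.69 and -0.87 in the YD pools, against 0.02 and 0.06 in the NDL25 pools, a difference of -0.82 ± 0.10 (limma adjusted p = 0.0654). The NDL25 pools were at the reference level and the YD pools below it. Its 2 other probes ranged from -0.80 to 0.02. Rrm2, a subunit of ribonucleotide reductase, had -1.33 and -1.72 in the YD pools, against -0.37 and 0.02 in the NDL25 pools. Mki67, the Ki-67 proliferation antigen, had -1.51 and -1.0 in the YD pools, against -0.53 and -0.37 in the NDL25 pools. Rrm2 and Mki67 thus had lower values in YD without overlap. Other members did not move this way: Top2a differed by 0.07, Cdk1 by 0.03, Mcm5 by 0.02 and Cdc6 by 0.01.

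Mcm7, a subunit of the replicative helicase, had -1.28 and -1.28 in the YD pools, against -0.54 and -0.73 in the NDL25 pools (difference -0.64 ± 0.10, limma adjusted p = 0.0849). Its promoter is shown because it alone, of the 10 members with an unadjusted p under 0.05 and a RefSeq promoter, held an E2F word. Mcm7 has 2 promoter windows, and the stretch shown is the first listed that holds the word. As for the ERSE above, a gene was counted if any of its windows held a match. The words searched on both strands were TTTGGCGC, TTTCGCGC, TTTCCCGC and TTTGCCGC. The stretch is RefSeq GRCm38.p6 chr5:138171884-138172133 on the minus strand, and capitals mark the word, 165 bases before the gene start.
Mcm7: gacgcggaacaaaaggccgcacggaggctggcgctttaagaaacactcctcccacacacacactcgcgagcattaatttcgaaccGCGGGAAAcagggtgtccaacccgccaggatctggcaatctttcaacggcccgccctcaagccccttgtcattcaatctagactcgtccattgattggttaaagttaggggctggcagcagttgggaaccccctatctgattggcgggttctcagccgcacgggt
Such a word was present in 6 of 28 members with a promoter (21.4%) and in 583 of 27025 genes overall (2.16%). The 6 were Cdc6, Cdk1, Mcm5, Mcm6, Mcm7 and Pola1, and Cdc6, Cdk1 and Mcm5 had differences near 0.

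Fanca was the 1 member called among 21 tested genes of the Fanconi anaemia and homologous recombination list. Another 4 members had an unadjusted p under 0.05, all lower. Fanci and Brca2 differed by -0.44 and -0.58, with -0.02 and -0.14 on their second probes, and the median of the list was -0.09. Tmed3 was likewise the 1 member called of 29 TMED and vesicle coat genes, whose median was 0.02, and -0.55 with the extraction day as a term. Tmed2 of the same family had -0.02 and 0.48 in the YD pools, against 0.62 and 1.06 in the NDL25 pools, and did not pass. Its 2 other probes differed by -0.07 and 0.26.

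Fat-cell genes had higher values in YD. Of 20 adipocyte markers 0 passed the adjusted test, 9 had an unadjusted p under 0.05 as higher and 0 as lower. Both YD pools lay above both NDL25 pools in 14 members and below in 0, where the shares over all genes were 22.4% and 23.8%. The median difference was 0.61, the highest of the 33 lists. It was 0.32 without YD pool 1, and 0.11 with the extraction day as a term. For YD minus the mean of YB, YC and YE the list's median was 0.42. The list's median level was 0.98 in YD pool 1 and 0.40 in YD pool 2. It was 0.72 and 0.43 in the YB pools, 0.23 and 0.34 in YC, and 0.46 and 0.26 in YE. YD pool 1 lay above all of these pools and YD pool 2 within their range.

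Adipoq had 2.25 and 2.0 in the YD pools, against 0.73 and 1.09 in the NDL25 pools (difference 1.22 ± 0.21, limma adjusted p = 0.105). Cfd, the fat-cell protease adipsin, had 4.98 and 4.75 in the YD pools, against 2.91 and 3.71 in the NDL25 pools. Car3, a carbonic anhydrase abundant in fat, had 2.97 and 2.64 in the YD pools, against 1.27 and 1.58 in the NDL25 pools. All 3 were above the reference in all 4 of these pools and higher in YD. Car3 differed by 1.38 on this probe, 0.25 on a second and -0.97 ± 0.66 with the extraction day as a term. Retn, the hormone resistin, differed by 0.68 ± 0.10 and by 1.51 on a second probe. The lipid-droplet genes Plin4 and Cidec differed by 0.89 ± 0.14 and 0.86 ± 0.15. Other defining fat-cell genes were near the reference in all 4 pools: Lep, Plin1 and Adrb3 differed by 0.02, 0.01 and 0.01, and Lipe by less. Ucp1, of brown fat, had 1.70 and 0.37 in the YD pools, against 0.12 and 0.07 in the NDL25 pools, so the YD pools differed from each other by more than the NDL25 pools.

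**Figure D4:**
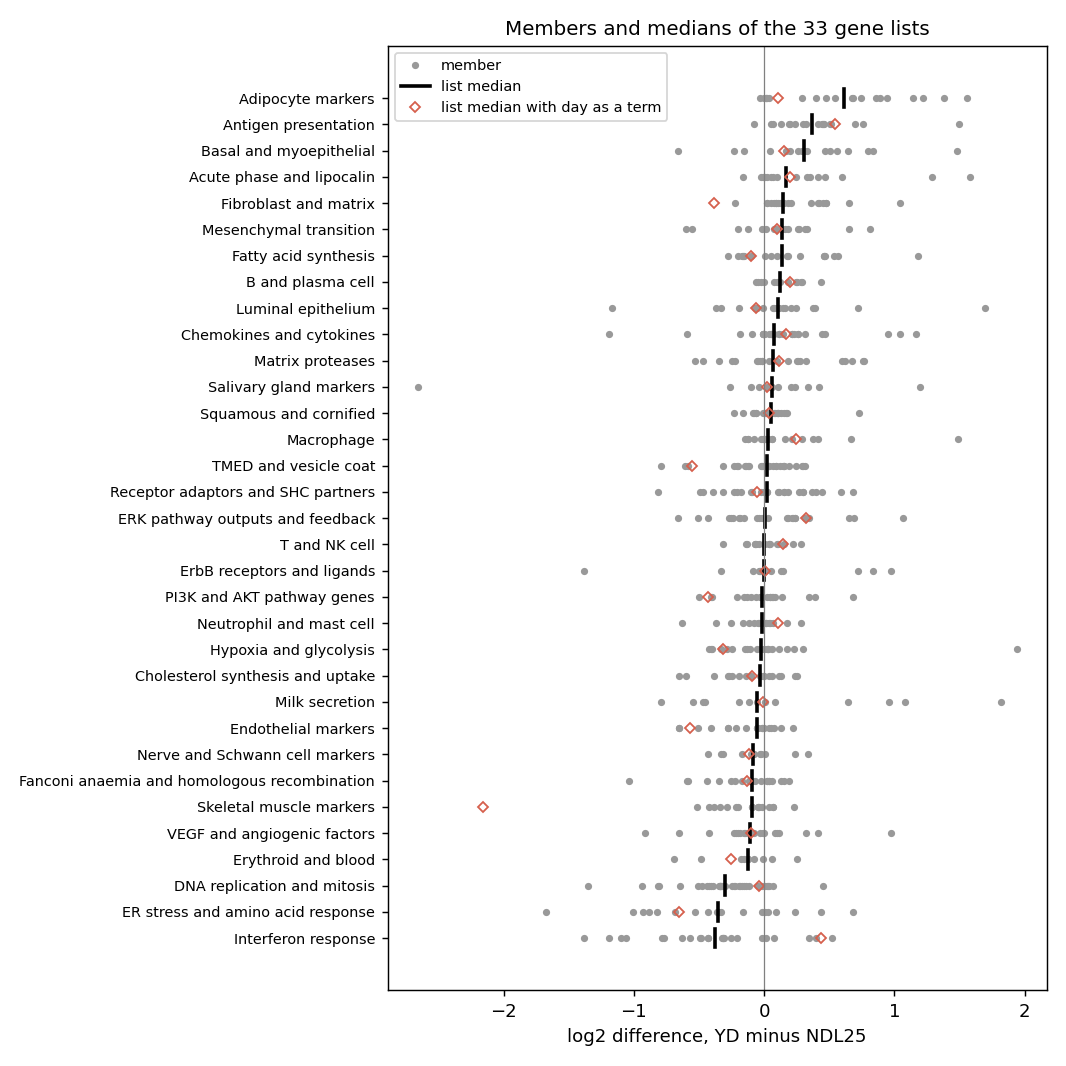
Log2 difference, YD minus NDL25 (horizontal), of every tested member (grey points) of the 33 gene lists (rows), with each list's median as a black bar and its median in a fit with the extraction day as a term as an open diamond. Adipocyte markers are at the top with a median of 0.61 and the interferon response at the bottom with -0.37. The diamond of the skeletal muscle list lies at -2.16.

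Genes that present antigen had higher values in YD. Of 18 members 0 passed, 5 had an unadjusted p under 0.05 as higher and 0 as lower, 13 did not overlap upward and 0 downward, and the median was 0.37. Over all genes 22.4% did not overlap upward and 23.8% downward. The list's median level was 1.6 and 1.65 in the YD pools, against 0.74 and 1.35 in the NDL25 pools. Without NDL25 pool 1 the median difference was 0.15, and with the extraction day as a term 0.55. For YD minus the mean of YB, YC and YE it was -0.07. Cd74, the invariant chain that escorts class II molecules, had 1.58 and 1.66 in the YD pools, against 0.26 and -0.01 in the NDL25 pools (difference 1.49 ± 0.37, limma adjusted p = 0.227). The class II genes H2-Aa, H2-Ab1 and H2-DMa differed by 0.45, 0.46 and 0.70, and the 3 other H2-Ab1 probes by 1.27 to 1.53. The class I genes H2-K1 and H2-D1 differed by -0.08 and 0.06. The macrophage list, whose cells carry class II, had a median of 0.03, and its 19 members held 2 with an unadjusted p under 0.05, Cd14 and Spp1. Cd14, a lipopolysaccharide co-receptor, had 0.65 and 1.23 in the YD pools, against -0.53 and -0.57 in the NDL25 pools. The part of other cell types in the antigen-presentation values was not tested.

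Interferon-induced genes showed a wide gap between the YD pools. The mean over 24 members was 0.21 and 0.91 in the YD pools, against 0.87 and 1.06 in the NDL25 pools. YD pool 1 was the lowest of the 4 and YD pool 2 lay within the range of the NDL25 pools. Rsad2, the antiviral protein viperin, had -0.44 and 0.54 in the YD pools, against 1.48 and 1.38 in the NDL25 pools, and its 2 other probes differed by -0.26 and -0.06. Of the list 0 passed and 2 had an unadjusted p under 0.05, Cxcl10 and Oas1a, both lower. The median was -0.37, with -0.69 without YD pool 2 and 0.0017 without YD pool 1. With the extraction day as a term it was 0.43, and Rsad2, Cxcl10 and Oas1a turned with it.

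Single chemokine and acute phase genes had higher values in YD. Cxcl12, a chemokine of stromal cells, had -2.70 and -3.11 in the YD pools, against -3.98 and -3.92 in the NDL25 pools, and its second probe gave 0.79. All 4 of these pools were far below the reference, YD the least. Cx3cl1, a membrane-bound chemokine, differed by 1.17 ± 0.24 and Cxcl10, an interferon-induced chemokine, by -1.19 ± 0.40. The second Cx3cl1 probe gave 0.19, and Cxcl10 turned to 1.55 ± 0.65 with the extraction day as a term. Hp, the haemoglobin-binding protein haptoglobin, had 1.99 and 1.88 in the YD pools, against 0.45 and 0.84 in the NDL25 pools, but the difference was -0.12 ± 0.79 with the extraction day as a term. Among 29 chemokine and cytokine genes 5 had an unadjusted p under 0.05 as higher and 1 as lower, and among 16 acute phase genes 5 as higher and 0 as lower. The acute phase median was 0.17, and 0.33 without NDL25 pool 1.

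The epithelial lists had small medians with a few wide members. Basal and myoepithelial genes had a median of 0.31, and 5 of 17 had an unadjusted p under 0.05 as higher and 1 as lower. Lamb3, a laminin chain of the basement membrane, had 0.77 and 1.52 in the YD pools, against -0.08 and -0.59 in the NDL25 pools. Trp63, the basal regulator p63, had 0.58 and 0.37 in the YD pools, against -0.14 and -0.03 in the NDL25 pools. Both were above the reference in YD and below it in NDL25, and neither passed. With the extraction day as a term Lamb3 differed by 0.32 ± 1.35 and Trp63 by 0.56 ± 0.57. The median of the basal list was then 0.15. The second Trp63 probe differed by -0.03. Luminal markers had a median of 0.11, yet Krt19 differed by 1.70 ± 0.64 and Spdef, a transcription factor of secretory epithelium, by -1.17 ± 0.30. Both turned with the extraction day as a term, Krt19 to -2.42 ± 1.2 and Spdef to 0.38 ± 0.73.

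Milk genes did not move together, with a median of -0.05 over 13 members. Among them 3 had an unadjusted p under 0.05 as higher and 0 as lower. Both YD pools lay above both NDL25 pools in 4 members and below in 5. Mfge8, a milk fat globule glycoprotein, had 2.21 and 2.37 in the YD pools, against 0.46 and 0.48 in the NDL25 pools (difference 1.82 ± 0.33, limma adjusted p = 0.12). Its spot was saturated on 3 of the 4 YD arrays. Csn1s1, a casein, had 3.74 and 2.85 in the YD pools, against 4.39 and 3.79 in the NDL25 pools. Mfge8 was thus higher and Csn1s1 lower in the YD pools, neither past the test. Csn1s1 turned to 0.38 ± 2.10 with the extraction day as a term. Pip, a secreted protein of salivary and other glands, had 0.30 and 0.13 in the YD pools, against 2.84 and 2.91 in the NDL25 pools on its brighter probe. The difference of Pip was -2.66 ± 0.92, with 0.01 on the other probe and 0.39 with the extraction day as a term.

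The receptor and its adaptors did not differ past the test. Erbb2, the gene of the transgene, had 3.55 and 3.97 in the YD pools, against 1.64 and 3.92 in the NDL25 pools on its brightest probe. NDL25 pool 1 stood apart from the other 3 pools, and the difference of 0.98 was little more than its error of 0.85 (limma adjusted p = 0.763). Among the other strains YB pool 1 was low as well, at 1.85, against 4.19 in YB pool 2. The 2 other Erbb2 probes differed by -0.03 and 0.07. Which probe reads the transgene is not known here, so no value is taken as the level of the receptor. Shc1, the adaptor that binds the restored site, had -0.46 and -0.23 in the YD pools, against -0.69 and -0.60 in the NDL25 pools. Grb2, the adaptor that joins receptors and Shc to Sos, differed by -0.18 ± 0.23. Both turned with the extraction day as a term, Shc1 to -0.21 and Grb2 to 0.33. The Ras exchange factor Sos2 had 0.16 and 0.25 in the YD pools, against 0.67 and 0.68 in the NDL25 pools (difference -0.47 ± 0.06, limma adjusted p = 0.0723), and Sos1 differed by -0.81 ± 0.20, with -0.04 on its second probe.

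Among the ErbB ligands, Egf had 1.51 and 1.25 in the YD pools, against 2.82 and 2.72 in the NDL25 pools, a difference of -1.38 ± 0.29 (limma adjusted p = 0.147). Egfr, its receptor, had 0.53 and 1.23 in the YD pools, against 0.02 and 0.07 in the NDL25 pools, while its 4 other probes ranged from -0.08 to 0.85. The difference with the extraction day as a term was -3.21 ± 0.55 for Egf and turned to -0.28 ± 0.79 for Egfr. Erbb3, the kinase-impaired partner of ErbB2, had 3.09 and 3.52 in the YD pools, against 3.71 and 3.57 in the NDL25 pools. Spry4, a feedback inhibitor of ERK signalling, differed by -0.66 ± 0.18, but by -0.04 on its second probe and 0.52 ± 0.33 with the extraction day as a term. Fos, an immediate early gene, differed by 0.69 ± 0.28. The ERK output list had a median of 0.01 over 24 members, and 1 had an unadjusted p under 0.05 as higher and 2 as lower.

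Of 19 endothelial markers 4 had an unadjusted p under 0.05, all lower in YD. Kdr, a VEGF receptor, had 1.87 and 2.20 in the YD pools, against 2.74 and 2.64 in the NDL25 pools, and Robo4 differed by -0.65 ± 0.15. The median of the list was -0.06, and -0.57 with the extraction day as a term. Angpt2, an endothelial angiopoietin, had 0.51 and 1.03 in the YD pools, against 2.06 and 1.31 in the NDL25 pools. Fibroblast and matrix genes had a median of 0.14, which ran from 0.03 to 0.36 with 1 pool of either strain left out and was -0.38 with the extraction day as a term. Dcn, the proteoglycan decorin, had -0.29 and -1.18 in the YD pools, against -1.97 and -1.58 in the NDL25 pools. Its second probe differed by -0.02, and the difference on the first turned to -0.23 ± 1.18 with the day term. Adamts1, a matrix protease, had -1.0 and -1.0 in the YD pools, against -1.65 and -1.60 in the NDL25 pools (limma adjusted p = 0.0723), and 0.43 as the difference on its second probe. Skeletal muscle markers had a median of -0.10, and 0 of 17 had an unadjusted p under 0.05, while with the extraction day as a term the median was -2.16.

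Where YD departs from the other strains with a single restored site was tested as YD minus the mean of YB, YC and YE. The NDL25 pools enter it only through the common estimate of spread, and with 1 of them left out, whichever it was, 6 genes passed. By limma 1 gene was higher in YD (0.00353% of genes) and 15 lower (0.0529%). Smoc1 was the 1 gene higher, by 1.76 (adjusted p = 0.0199), with strain means of 2.72 in YD, 0.49 in YE, 0.75 in YC and 1.64 in YB. Tmed3 was lower by this measure too, at -0.43 (adjusted p = 0.0488), with strain means of 1.19 in YD, 1.76 in YE, 1.57 in YC and 1.54 in YB. Most of the other genes lower in YD were high in YB alone, such as Prpmp5, a salivary proline-rich protein, with a mean of 0.19 in YD and 6.04 in YB. With YB left out of the mean, a choice made after these values were seen, 2 genes passed, Smoc1 and Slc25a17, a peroxisomal carrier. Fanca did not pass against the mean of YB, YC and YE, at -0.44 (limma adjusted p = 0.174). Its strain means were -1.49 in YD, -0.91 in YE, -0.93 in YC, -1.30 in YB and -0.45 in NDL25.

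The YE pools share the extraction day of the YD pools. In YD minus YE 3 genes were higher (0.0106%) and 2 lower (0.00706%) by limma. Ptx3 was higher by 2.64 ± 0.25 and Smoc1 by 2.23 ± 0.20 (adjusted p = 0.0457 for both). Ptx3 had a mean of -2.40 in YE and Smoc1 of 0.49, so for both the YD pools stood above YE and above NDL25. Lrrc42 was higher by 0.64, Pycr1, an enzyme of proline synthesis, lower at -0.89, and Slc25a17 lower at -0.87. Tmed3 and Fanca differed from YE by -0.57 each and did not pass (adjusted p = 0.0536 and 0.115). On the Agilent processed signals 0 genes were called in this contrast, and 0 with pools of the same number as a block. Smoc1 was highest in YD of the 6 strains and Ptx3 too, with the next strain, YB, at -0.53.

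**Figure D5:**
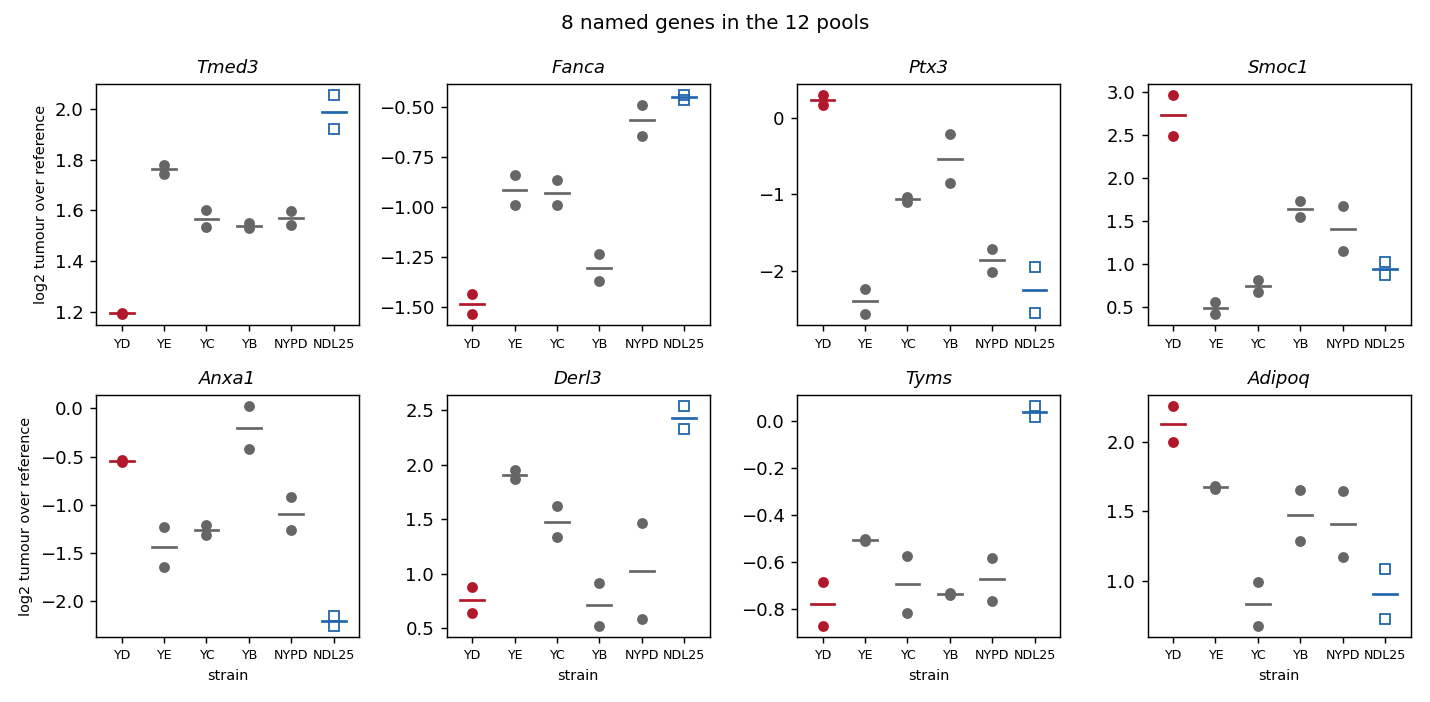
Log2 tumour over reference (vertical) of 8 named genes in the 12 pools, by strain (horizontal), with YD in red at the left, NDL25 as open blue squares at the right and the other strains in grey. Points are pools and bars are means of 2 pools. YD was the lowest strain for Tmed3 and Fanca and the highest for Ptx3 and Smoc1, while for Tyms the NDL25 pools stood above all others.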

How the data were processed

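RNA of 12 tumour pools, 2 from each of 6 strains, was measured on 24 two-colour arrays. The scanner files hold mean and local background intensity per spot, per the file headers, written by Agilent Feature Extraction. The authors also deposited ratios per pool and probe, with 0.491% to 3.28% missing, read here as log2 although no base is stated. For these, RMA, limma and R 2.3.0 stand in the submitters' processing notes, without their order or settings. Against the scanner log2 ratios their slope was 1.01 to 1.35, at r = 0.983 or above across probes.

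Intensities were corrected by normexp with offset 50 and normalised by loess within each array (limma 3.58.1, R 4.3.3, data.table in version 1.17.8). Marked spots were left out, swapped arrays turned, and pairs averaged. Of 41174 probes, 698 were left out for marks and 312 as dim (under 4 arrays with a tumour signal clear of background), and the brightest probe stood for a gene. Probes took RefSeq symbols by accession for 20816. One limma model with 6 strain means and 12 pools was fitted (residual df 6, prior df 1.76), two-sided, with Benjamini-Hochberg adjustment over 28347 genes. SE denotes limma's moderated standard error, with a median of 0.109 over genes. On simulated data with this layout and 28347 genes, 64 of 100 genes moved by log2 1 in YD minus NDL25 and 96 of 100 moved by 2 were recovered, with 6 false calls. The simulated noise was normal and independent between pools, without shared deviations of same-numbered pools and without other strain differences. These rates therefore need not hold for the real pools.

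The rule for named genes took all called genes, the 12 higher and 12 lower genes with the smallest p among those at least 2-fold apart, without overlap, with an ordinary symbol and signal above background, up to 4 members a list, Erbb2, Shc1 and Grb2, and 8 genes of the contrast with YB, YC and YE. The few further list members named were chosen after their values were seen. Results for some genes are not reported here. The members and the 33 lists were chosen with earlier results of these data known. Pools share numbers across strains, and deviations of same-numbered pools correlated at r = 0.01 for YD and NDL25, 0.62 for YD and YE, 0.71 for YD and YC and 0.13 for YD and YB. With 2 pools a strain, and no label that ties the numbers, they were not taken as pairs. Alternatives covered normalization, filters, probes, dyes, day, pairing and each pool left out.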

Additional observations from a re-analysis of the deposited data

Results flagged for a closer look

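Ptx3 differed between YD and YE tumours by a log2 of 2.64, and Smoc1 by 2.23, each past the limma test of the difference between these strains. Against the mean of YB, YC and YE, Smoc1 differed by 1.76 and Tmed3 by -0.43, again past the test. The first 2 amounts are thus how far the departure of YD from NDL25 differed from that of YE. The others are how far it differed from the mean of YB, YC and YE. For Ptx3 that second contrast gave 1.57 and did not pass (limma adjusted p = 0.0944). These calls moved with the processing, as given below. In Smoc1 both YD pools, at 2.48 and 2.97, lay above every other pool.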

How the results depend on the processing

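Counts of called genes moved with most choices. For YD minus NDL25, with 2 as reported, 0 genes passed on Agilent processed signals, on the deposited log ratios, with median centring in place of loess, with the mean of a gene's probes, with the tumour in Cy3 alone, with a variance trend and with only the strains compared. It was 1 with ratios scaled between arrays, 9 with the tumour in Cy5 alone, and 2 with no filter on dim probes. With 1 pool left out the count ran from 0 to 24: 24 without either YB pool, 6 without either YE pool and 0 without any other pool. It was 1 without the NDL25 and YB pools numbered 1, chosen after seeing the data. These were the pools with the lowest Erbb2 values on its brightest probe. Across these fits 0 genes passed each time.

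With the replicate block the count was 9 for YD minus NDL25 and 0 for YD minus YE. The correlation of same-numbered pools was r = 0.01 for the first and 0.62 for the second, whose 5 calls the block ends. With the extraction day as a fixed block, whose size rests on the 2 YC pools alone, the counts were 0, 1 for YD minus YB, YC and YE, and 0 for YD minus YE. As a random block the day gave 116, where an estimated correlation of -0.12 made the errors smaller.

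Against YB, YC and YE, with 16 as reported, the count was 10 on processed signals and in Cy3 alone, 30 on the deposited ratios, 38 when scaled, 5 with only the strains compared, 64 without the 2 pools numbered 1 and 2 with YB out of the mean. With 1 pool left out it ran from 4 without either YD pool to 200 without YB pool 1. For YD minus YE, with 5 as reported, it was 1 when scaled, 0 under the processed, deposited, centred, probe-mean, Cy3, trend, strains-compared and 2-pool alternatives, and 0 to 3 with 1 pool left out. The causes were not tested. Of the 160 named genes, 116 kept the sign of YD minus NDL25 in every setting that gave them a value, up to 28. Several settings cannot change this difference. They are the fits without a YB, YC, YE or NYPD pool, with a variance trend, or with only the strains compared. Most of these genes were also named for a small p in this same difference, so kept signs are no independent check.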
